A study of Mus musculus with 10 samples.

Results

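Sprr1a and 8 genes of gp130 cytokine signalling and its surroundings (Socs3, Osmr, Lifr, Il6st, Il6ra, Stat3, Pim1 and Tnfrsf12a) were followed in mouse hearts, as 9 rows chosen by gene symbol from a table of 55858 genes. The tested hearts came from 5 mice labelled cKO, which carried MCM together with Chmp4bF/F and were injected under the skin with tamoxifen at 0.1 mg/g on 2 days from postnatal day 0. The control hearts came from 5 mice of the same genotype that were given corn oil in place of tamoxifen. All hearts were taken at postnatal day 10, and RNA of whole hearts was sequenced. Both groups carried MCM and the floxed gene. The controls received no tamoxifen, so the drug, the activity of the recombinase and the loss of Chmp4b, a subunit of the membrane-cutting ESCRT-III complex, cannot be told apart. No source used here gives the promoter that drives MCM. The members were chosen with the cKO against control values known, so their values below are a description and carry no test.

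gp130, the product of Il6st, is a signal-transducing receptor chain that cytokines of the interleukin-6 family share. Each cytokine brings gp130 together with a partner, such as the receptors for leukaemia inhibitory factor (Lifr), oncostatin M (Osmr) or interleukin-6 (Il6ra), and the complex activates Janus kinases and the transcription factor STAT3. Among the genes that STAT3 switches on are Socs3, whose product shuts the receptor down, and the survival kinase gene Pim1. In heart muscle cells of rodents this route is known for survival and growth signals, and Sprr1a, a small proline-rich protein best known from the cornified envelope of skin, has been described as one of its induced genes. Tnfrsf12a encodes Fn14, the receptor for the cytokine TWEAK, which signals through TRAF adaptors and NF-kB and not through gp130.

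The 250 bases before the annotated start of Sprr1a are shown because this gene had by far the largest difference among the members. Sprr1a lies on chromosome 3 of GRCm38, from 92483954 to 92485881 on the minus strand, and the stretch below is chr3:92485882-92486131, minus strand, from RefSeq (GRCm38.p6). Capitals mark matches to TGANTCA, the core of the site bound by AP-1 factors, on either strand.
Sprr1a: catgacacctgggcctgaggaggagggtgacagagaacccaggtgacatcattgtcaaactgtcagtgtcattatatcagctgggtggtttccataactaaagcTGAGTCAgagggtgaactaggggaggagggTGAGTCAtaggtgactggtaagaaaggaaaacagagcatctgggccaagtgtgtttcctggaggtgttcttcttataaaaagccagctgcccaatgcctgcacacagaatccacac
The window held 2 matches, with 139 and 109 bases between each match and the start. It held no match to TTCNNNGAA, the core of a STAT site, or to TGACGTCA, the cyclic AMP response element, which says only that these letters are not in this window. Over 32851 windows of the same length before annotated mouse starts, 6.75% held TGANTCA, 7.02% held TTCNNNGAA and 1.55% held TGACGTCA.

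All 9 members had a window in the same table, 11 in all, and 2 of the 11 held any of the 3 motifs. The other was that of Socs3, the feedback inhibitor, on chromosome 11, shown here as 30 bases (chr11:117969501-117969530, minus strand) with the match to TTCNNNGAA in capitals.
Socs3: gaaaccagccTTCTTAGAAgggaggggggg
This match lay with 145 bases between it and the annotated start. A match is a description of letters and not a bound site.

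Each library in the table summed to 1000000 TPM (a share of RNA after division by gene length), so its read depth is unknown, and an increase in some genes lowers the others. The share of mitochondrially encoded genes was 35.5% to 41.5% in the cKO and 50.0% to 59.4% in the control libraries, and the median of all 13282 tested genes lay 0.63 higher in cKO on the log2 scale. Differences are therefore given against the median gene, from TPM divided by a size factor per library ("scaled TPM"), and also as deposited. Chmp4b itself stood at 27.6 to 31.1 scaled TPM in the cKO and at 51.1 to 69.3 in the control libraries, without overlap. As deposited the ranges overlapped, with means of 38.2 ± 1.42 TPM in the cKO and 47.4 ± 8.61 TPM in the control libraries (SD, n = 5 each). Cardiomyocyte markers such as Myh6 and Tnnt2 were abundant in every library. cKO replicates 1, 5 and 7 held Xist at 1 TPM or more and 0 control libraries did, so sex was not balanced between the groups. In whole hearts, fewer cells of a type and less RNA per cell cannot be told apart.

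Sprr1a was nearly silent in control hearts and abundant in every cKO heart. It had 66.9, 50.2, 34.2, 17.0 and 15.7 TPM in cKO replicates 1, 3, 5, 6 and 7, against 0.201, 0.109, 0.116, 0.226 and 0.401 TPM in control replicates 4, 6, 8, 9 and 13. The lowest cKO heart stood far above the highest control heart. The scaled means were 27.7 ± 15.4 in cKO and 0.280 ± 0.179 in control hearts (mean ± SD, n = 5 each), a ratio of 98.6. On the log2(scaled TPM + 1) scale, which understates the change of a gene this low in controls, the difference was 4.31 ± 0.32 (SE), and it was 4.76 ± 0.33 as deposited. It ranked 6 of 13282 genes by the scaled difference. The gene reached 1 TPM in 5 libraries, all of them cKO, so it passed the filter on low values only through the group in which it is high.

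**Figure D1:**
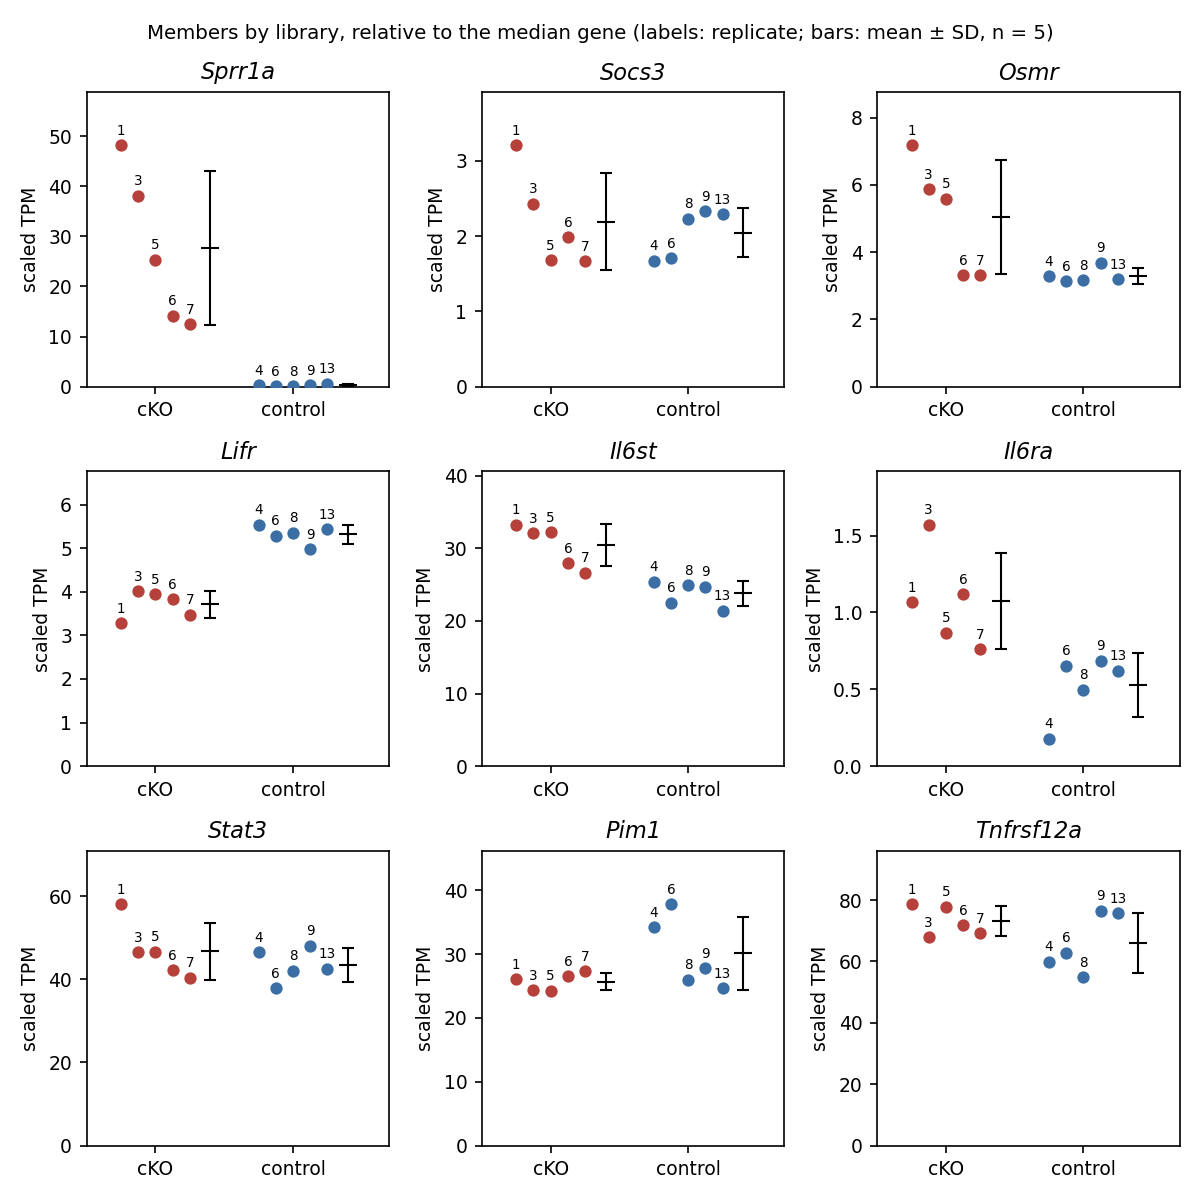
Scaled TPM (TPM divided by the library's size factor, linear axes from 0) of the 9 members in each cKO and control heart, with replicate numbers above the points and the mean ± SD (n = 5) as bars. Sprr1a separates the groups completely, Il6st and Il6ra lie higher and Lifr lower in cKO without overlap, and the other 5 members overlap.

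Among the receptors, the shared chain gp130 was more abundant in cKO hearts and the leukaemia inhibitory factor receptor less abundant against the median gene. Il6st had 46.2, 42.3, 43.4, 33.6 and 33.6 TPM in cKO replicates 1, 3, 5, 6 and 7, against 18.2, 19.1, 21.1, 19.5 and 15.0 TPM in control replicates 4, 6, 8, 9 and 13. The groups did not overlap on either scale. The log2 difference was 0.34 ± 0.08 (SE) against the median gene and 1.06 ± 0.12 as deposited. Lifr, the chain that pairs with gp130 for leukaemia inhibitory factor and cardiotrophin, had 4.55, 5.29, 5.32, 4.61 and 4.38 TPM in cKO replicates 1, 3, 5, 6 and 7, against 3.97, 4.47, 4.55, 3.93 and 3.81 TPM in control replicates 4, 6, 8, 9 and 13. As deposited these groups overlapped, and after scaling they did not, with 3.28 to 4.01 in cKO and 4.97 to 5.54 in control hearts. Its log2 difference was -0.43 ± 0.07 (SE) against the median gene and 0.18 ± 0.09 as deposited, so its sign depends on the scale.

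Osmr, the chain that pairs with gp130 for oncostatin M, varied widely among cKO hearts. It had 9.98, 7.74, 7.52, 3.99 and 4.17 TPM in cKO replicates 1, 3, 5, 6 and 7, against 2.36, 2.65, 2.69, 2.92 and 2.25 TPM in control replicates 4, 6, 8, 9 and 13. After scaling, cKO replicates 6 and 7 lay within the range of the controls, which was 3.13 to 3.69, and cKO replicates 1, 3 and 5 stayed above it. The log2 difference was 0.45 ± 0.17 (SE) against the median gene and 1.04 ± 0.20 as deposited.

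Ratios of receptor chains within a library do not depend on scaling. The ratio of Osmr to Lifr was 2.19, 1.46, 1.41, 0.865 and 0.953 in cKO replicates 1, 3, 5, 6 and 7, against 0.594, 0.593, 0.591, 0.743 and 0.589 in control replicates 4, 6, 8, 9 and 13. Every cKO heart had a higher ratio than every control heart, and the ratio passed 1 in cKO replicates 1, 3 and 5. The ratio of Lifr to Il6st was 0.123 ± 0.0147 in cKO and 0.225 ± 0.0202 in control hearts (mean ± SD, n = 5 each), without overlap. The ratio of Osmr to Il6st, 0.163 ± 0.0412 in cKO and 0.139 ± 0.0106 in control hearts, overlapped.

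Il6ra, the binding chain for interleukin-6, was low throughout. It had 1.48, 2.07, 1.17, 1.35 and 0.959 TPM in cKO replicates 1, 3, 5, 6 and 7, against 0.128, 0.554, 0.423, 0.542 and 0.436 TPM in control replicates 4, 6, 8, 9 and 13. The groups did not overlap on either scale, and the scaled ratio of means was 2.04. It reached 1 TPM in 4 libraries and so was outside the set of tested genes.

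The transcription factor and its feedback and survival targets moved little against the median gene. Stat3 had 80.6, 61.3, 62.7, 50.8 and 50.9 TPM in cKO replicates 1, 3, 5, 6 and 7, against 33.3, 32.1, 35.6, 38.0 and 29.8 TPM in control replicates 4, 6, 8, 9 and 13. All cKO values lay above all control values as deposited, but after scaling the ranges overlapped, 40.4 to 58.1 in cKO and 37.9 to 48.1 in control hearts. The log2 difference of Stat3 was 0.10 ± 0.10 (SE) against the median gene and 0.82 ± 0.13 as deposited. The scaled difference of Stat3 was 0.02 without cKO replicate 1 and 0.05 without control replicate 6. Over all single libraries left out it reached up to 0.15.

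Socs3, the feedback inhibitor of gp130, had 4.45, 3.20, 2.26, 2.39 and 2.10 TPM in cKO replicates 1, 3, 5, 6 and 7, against 1.20, 1.44, 1.89, 1.84 and 1.60 TPM in control replicates 4, 6, 8, 9 and 13. After scaling, cKO replicates 1 and 3 stood above every control heart, the other cKO hearts stood at the level of the controls, and the lowest values of both groups were 1.67. The log2 difference of Socs3 was 0.05 ± 0.14 (SE) against the median gene and 0.55 ± 0.16 as deposited. Without cKO replicate 1 the scaled difference of Socs3 was -0.05, and over all single libraries left out it reached up to 0.11. The ratio of Socs3 to Stat3, which no scaling changes, was 0.0463 ± 0.00787 in cKO and 0.0473 ± 0.00729 in control hearts (mean ± SD, n = 5 each), with overlap.

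Pim1, the kinase gene, had 36.2, 32.1, 32.7, 31.9 and 34.4 TPM in cKO replicates 1, 3, 5, 6 and 7, against 24.5, 32.0, 22.1, 22.0 and 17.3 TPM in control replicates 4, 6, 8, 9 and 13. The groups overlapped on both scales, with control replicate 6 within the cKO range as deposited. The log2 difference was -0.20 ± 0.11 (SE) against the median gene and 0.51 ± 0.13 as deposited, so its sign also depends on the scale. Without control replicate 6 the scaled difference of Pim1 was -0.12, and over all single libraries left out it ran from -0.27 to -0.12. Tnfrsf12a, which encodes Fn14, was the most abundant member, with 109, 89.5, 105, 86.5 and 87.3 TPM in cKO replicates 1, 3, 5, 6 and 7, against 42.9, 53.1, 46.6, 60.6 and 53.1 TPM in control replicates 4, 6, 8, 9 and 13. Relative to the median gene the groups overlapped and its log2 difference was 0.15 ± 0.10 (SE). As deposited the difference was 0.89 ± 0.11.

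**Figure D2:**
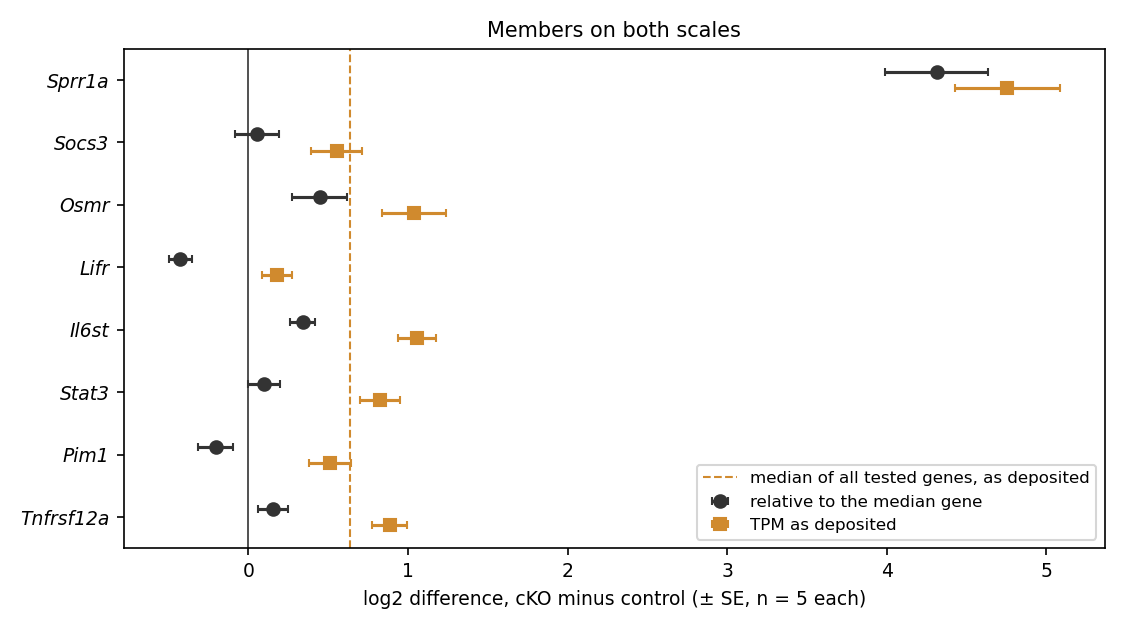
Log2 difference (cKO minus control, ± SE, n = 5 each) of the 8 tested members against the median gene (circles) and as deposited (squares), with the median of all tested genes as deposited, 0.63, as a dashed line. Sprr1a lies at 4.31 and 4.76, and the other 7 lie between -0.43 and 0.45 against the median gene.

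By limma over all 13282 tested genes, 2 of the 8 tested members were called higher against the median gene (Sprr1a and Il6st) and 1 was called lower (Lifr), beside 20.8% of all genes called higher, 20.8% called lower and 41.6% called in either direction. As deposited, 7 of 8 were called higher and 0 lower, beside 76.5% and 3.46% of all genes. After scaling, 2 of the 8 tested members were higher in cKO without overlap and 1 was lower, beside 15.8% and 15.5% of all genes. As deposited, 6 of 8 were higher without overlap and 0 lower, beside 62.5% and 1.92%. The rule used this contrast, so nothing is read from these counts. The median of the tested members was 0.13 against the median gene, beside 0.01 over all tested genes, and 0.86 as deposited, beside 0.63.

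Levels per length also changed order. In cKO hearts the mean TPM ran from Tnfrsf12a (95.4) through Stat3 (61.3), Il6st (39.8), Sprr1a (36.8), Pim1 (33.5), Osmr (6.68), Lifr (4.83) and Socs3 (2.88) to Il6ra (1.41). In control hearts it ran from Tnfrsf12a (51.3) through Stat3 (33.8), Pim1 (23.6), Il6st (18.6), Lifr (4.14), Osmr (2.57), Socs3 (1.60) and Il6ra (0.417) to Sprr1a (0.210). In cKO hearts the ranges of the neighbours Il6st, Sprr1a and Pim1 overlapped, as did those of Osmr and Lifr and of Lifr and Socs3. In control hearts those of Stat3 and Pim1, of Pim1 and Il6st, and of Il6ra and Sprr1a overlapped, while Lifr lay above Osmr without overlap.

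The cKO hearts differed among themselves most in Sprr1a. Its coefficient of variation over the 5 cKO hearts was 55.7% after scaling, above that of 96.5% of tested genes. It was 33.6% for Osmr and 29.5% for Socs3, and 5.19% for Pim1, the lowest of the members. It was above 30% for 2 of 9 members, beside 12.3% of all tested genes. For Sprr1a, Osmr, Il6st and Stat3, cKO replicates 1, 3 and 5 all stood above cKO replicates 6 and 7. The same held for 4 of 9 members and for 13.4% of all tested genes. This split was seen in the data and is not a group of the study. It did not follow Xist, which was present in cKO replicates 1, 5 and 7. Library-wide measures were split in the same way. Genes at 1 TPM or more numbered 13970, 13940 and 14011 in cKO replicates 1, 3 and 5, and 13579 and 13578 in 6 and 7. Size factors were 1.39, 1.32 and 1.35, against 1.20 and 1.26. The part of these library-wide differences in the split was not tested.

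**Figure D3:**
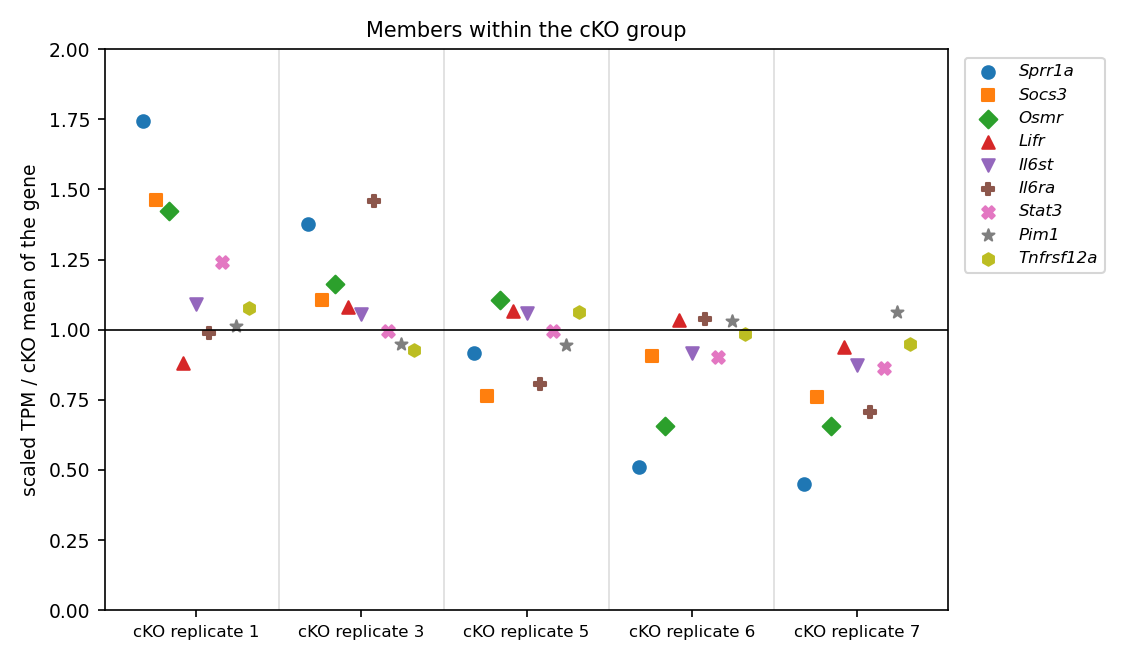
Scaled TPM of each member divided by its mean over the 5 cKO hearts, by replicate. Sprr1a and Osmr are high in replicate 1 and low in replicates 6 and 7, while Pim1, Lifr and Tnfrsf12a stay near 1 in all 5 hearts.

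The genes nearest to Sprr1a in pattern, by the root-mean-square difference of centred log2 values over the 10 libraries among 9602 genes, were Lgals3 (0.47), Mlana (0.51), Cxcl10 (0.55), Krt8 (0.57) and Krt18 (0.61). Lgals3, which encodes galectin-3, had 129, 74.5, 77.0, 32.8 and 47.3 TPM in cKO replicates 1, 3, 5, 6 and 7, against 2.23 to 3.15 TPM in control hearts. The log2 differences of these neighbours ran from 3.49 to 4.78 against the median gene, beside 4.31 for Sprr1a. For Sprr1a the measure therefore mainly matched the difference between the groups. Like Sprr1a, Lgals3 and Cxcl10 were higher in cKO replicates 1, 3 and 5 than in 6 and 7. Mlana, Krt8 and Krt18 did not have that order. Nearest to Osmr were Ulk3 (0.08), Ampd3 (0.12), Eif3j2 (0.15), Rbm12b2 (0.15) and Plekho2 (0.15). All of these were higher in cKO replicates 1, 3 and 5 than in 6 and 7. Osmr itself had that order, so the search for close patterns favoured it. Nearest to Socs3 were Zfp866, Supt6, Zfp646, Tardbp and Mex3c (0.11 each). Nearest to Tnfrsf12a were Utp15 (0.08), Rbbp5 (0.08), Man2a1 (0.09), Arhgap23 (0.09) and Gga2 (0.09).

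Other genes were taken from 9 lists, here called pathway lists, with 102 genes in all, of which 65 passed the filter. The lists for TWEAK and Fn14 signalling, cornified envelope genes and nerve injury are outside gp130 signalling. Counts pooled over the 9 lists therefore mix them with genes of the pathway. Of these 65, limma called 22 higher and 7 lower against the median gene, beside 20.8% of all genes in each direction. As deposited it called 56 of the 65 higher and 2 lower, beside 76.5% and 3.46% of all genes. The median of the 65 genes was 0.16 against the median gene, beside 0.01 over all tested genes.

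Most cytokines that act through gp130 were scarce. Of 11 ligand genes 3 passed the filter. Ebi3, a subunit of interleukin-27 and interleukin-35, had 2.03 ± 0.661 TPM in cKO and 0.387 ± 0.199 TPM in control hearts (mean ± SD, n = 5 each). Its log2 difference was 0.78 ± 0.16 (SE) against the median gene (limma adjusted p = 0.00239). Ebi3 reached 1 TPM only in the 5 cKO libraries, so it passed the filter only through the group in which it is high. That p-value is therefore a description and not a test. Clcf1, cardiotrophin-like cytokine factor, had 2.60 ± 1.19 TPM in cKO and 0.894 ± 0.335 TPM in control hearts. Against the median gene its log2 difference was 0.44 (limma adjusted p = 0.125). Ctf1, cardiotrophin 1, had 3.81 ± 1.06 TPM in cKO and 2.76 ± 0.894 TPM in control hearts. Against the median gene Ctf1 was lower in cKO, by -0.21 (limma adjusted p = 0.434), so its sign depends on the scale. Without cKO replicate 7 the adjusted p of Clcf1 was 0.0232.

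Lif, leukaemia inhibitory factor, was below the filter, with 1.46, 1.17, 2.07, 0.632 and 0.837 TPM in cKO replicates 1, 3, 5, 6 and 7, against 0.206, 0.184, 0.141, 0.338 and 0.285 TPM in control replicates 4, 6, 8, 9 and 13. Every cKO heart was above every control heart, also after scaling. With no filter on low values its log2 difference was 0.55 against the median gene (limma adjusted p = 0.0158). Il6 averaged 0.123 ± 0.0950 TPM in cKO and 0.107 ± 0.134 TPM in control hearts, and Osm 0.205 ± 0.100 TPM in cKO and 0.102 ± 0.0775 TPM in control hearts. Il11 averaged 0.0709 ± 0.0410 TPM in cKO and 0.0492 ± 0.0316 TPM in control hearts, and Ctf2 0.0888 ± 0.0717 TPM in cKO and 0.0566 ± 0.0292 TPM in control hearts. Cntf averaged 0.771 ± 0.371 TPM in cKO and 0.469 ± 0.404 TPM in control hearts. With no filter, none of these 5 was called against the median gene (limma adjusted p from 0.783 to 0.926). Il27 was listed at 0 in cKO replicates 3, 5 and 6 and in all control libraries, and had 0.102 and 0.191 TPM in cKO replicates 1 and 7.

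No other receptor of the family was called against the median gene. All 3 that passed the filter were called higher as deposited, beside 76.5% of all genes. Il11ra1, the interleukin-11 receptor chain, had 36.9 ± 5.61 TPM in cKO and 18.2 ± 4.39 TPM in control hearts (mean ± SD, n = 5 each), a log2 difference of 0.29 ± 0.12 (SE) against the median gene (limma adjusted p = 0.0728). It was called without cKO replicate 6 (limma adjusted p = 0.0459) and without control replicate 6 (limma adjusted p = 0.0351). Lepr, the leptin receptor, and Il27ra stood at 0.16 and 0.02 (limma adjusted p = 0.327 and 0.907), and Cntfr and Il31ra were below the filter.

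Of 9 tested Janus kinase and other STAT genes, 5 rose and 1 fell against the median gene, beside 20.8% of genes each way. All 9 were higher as deposited, beside 76.5% of all genes. Stat6 and Tyk2 rose by 0.26 and 0.37 (limma adjusted p = 0.00687 and 0.0102). Jak1 and Stat2, named after their values were seen, also rose (0.24 and 0.53). Stat5b fell by 0.27 against the median gene (limma adjusted p = 0.00544) and was higher by 0.41 as deposited.

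Among 14 tested brakes on the pathway, 2 rose and 1 fell against the median gene, beside 20.8% of genes each way. As deposited 13 were called higher, beside 76.5% of all genes. Ptpn6, the phosphatase SHP-1 that is typical of blood cells, rose to 8.38 ± 0.556 TPM in cKO, against 1.68 ± 0.273 TPM in control hearts, by 1.24 ± 0.08 (SE, limma adjusted p = 5.72e-07). Socs2, an inhibitor of growth hormone signalling, rose by 0.26 (limma adjusted p = 0.0275), but was not called without cKO replicate 3 (limma adjusted p = 0.0664) or without control replicate 6, 8 or 9 (0.0588 to 0.0659), and with no filter on low values its adjusted p was 0.0506. Cish, another SOCS family gene, fell by 0.37 (limma adjusted p = 0.00759) and was higher by 0.35 as deposited. Pim2 and Pim3, the paralogs of Pim1, stood at 0.13 and -0.09 and were not called, whereas both were called higher as deposited.

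The STAT3-responsive list gave genes in both directions. Against the median gene 7 of 20 tested genes were higher and 3 lower (median 0.16), beside 20.8% of all genes each way. As deposited 16 were higher and 1 lower, beside 76.5% and 3.46% of all genes. The growth regulator Myc rose to 15.5 ± 2.98 TPM in cKO, against 2.15 ± 0.309 TPM in control hearts, by 1.76 ± 0.10 (SE, limma adjusted p = 2.94e-07). The metallothionein gene Mt2 rose by 1.53 and the protease inhibitor gene Timp1 by 1.23 (limma adjusted p = 1.65e-05 and 7.4e-05). Vegfa, a growth factor for blood vessels, fell by 0.74 against the median gene (limma adjusted p = 0.000145) and stood at 0.00 as deposited. Of genes named after their values were seen, Bcl3 and Junb rose by 0.52 and 0.57, and Lrg1 and Bcl6 fell by 0.98 and 0.45. Bcl6 fell only after scaling. As deposited it had 2.27 to 3.31 TPM in cKO and 2.16 to 3.37 TPM in control hearts. Also named after their values were seen, the acute-phase genes Lcn2 and Serpina3n were not called (-0.18 and 0.17), and Reg3b was listed at 0 in every library.

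Most other genes of TWEAK and Fn14 signalling rose. Against the median gene 7 of 9 tested genes were higher and 0 lower (median 0.67), beside 20.8% of all genes each way. As deposited all 9 were called higher, beside 76.5% of all genes. Nfkb2, the NF-kB subunit of the non-canonical branch, had 28.7, 22.2, 23.9, 18.1 and 21.1 TPM in cKO replicates 1, 3, 5, 6 and 7, against 5.24, 5.88, 5.66, 4.78 and 5.00 TPM in control replicates 4, 6, 8, 9 and 13. It rose by 1.23 ± 0.09 (SE, limma adjusted p = 1.07e-06). Its partner Relb rose by 0.78, its activating kinase gene Map3k14 by 1.17 and the adaptor gene Traf3 by 0.79 (limma adjusted p = 4.98e-05, 5.11e-05 and 0.000209). The ligand gene Tnfsf12 was not called, with 10.4 ± 2.12 TPM in cKO and 5.27 ± 1.85 TPM in control hearts (log2 difference 0.24 ± 0.15 SE, limma adjusted p = 0.224).

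**Figure D4:**
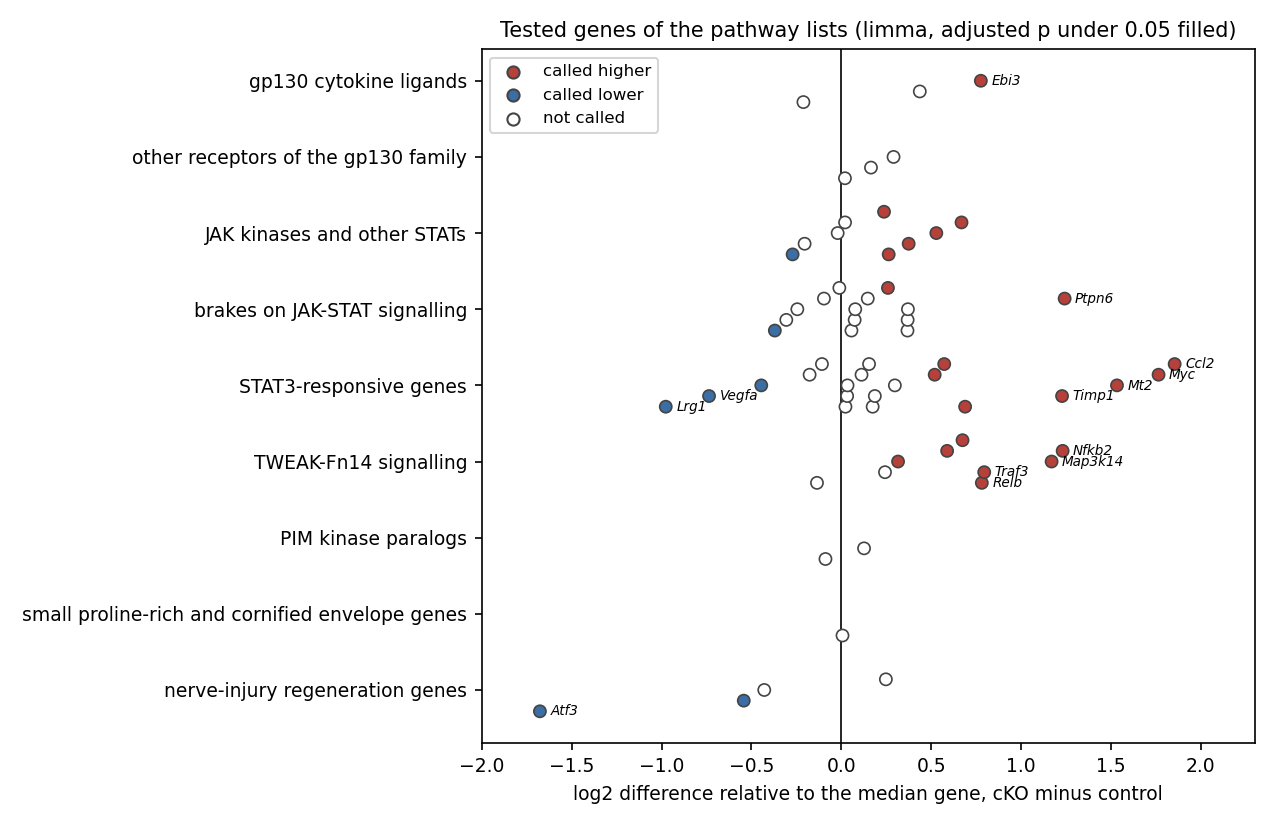
Log2 difference against the median gene (cKO minus control) of each tested gene in the 9 pathway lists, filled where limma called it at an adjusted p under 0.05 (red higher, blue lower, open not called), with names beside the largest differences. The TWEAK-Fn14 list lies mostly to the right, the STAT3-responsive list spreads to both sides, and Atf3 is farthest to the left at -1.68.

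Most relatives of Sprr1a were not detected. Of 17 other small proline-rich and cornified envelope genes, 11 were listed at 0 in every library, Sprr1b, Sprr3 and the envelope gene Ivl among them. The 1 that passed the filter was Sprr2a2, with 10.6 ± 2.08 TPM in cKO and 6.35 ± 1.46 TPM in control hearts (mean ± SD, n = 5 each) and a log2 difference of 0.00 ± 0.16 (SE) against the median gene (limma adjusted p = 0.991). Sprr2a1, Sprr2a2 and Sprr2a3 are near-identical copies, so the split of reads among them is uncertain. Sprr1a is also known as a gene that injured neurons switch on. Of 9 genes known for nerve injury 4 were tested. Against the median gene 0 rose and 2 fell (median -0.49), beside 20.8% of all genes each way. As deposited 1 was called higher and 1 lower (median 0.09), beside 76.5% and 3.46% of all genes. Atf3, a transcription factor that injured neurons induce, had 6.72, 4.50, 3.95, 3.46 and 4.95 TPM in cKO replicates 1, 3, 5, 6 and 7, against 12.1, 12.3, 12.2, 10.9 and 6.45 TPM in control replicates 4, 6, 8, 9 and 13. It fell by 1.68 ± 0.16 (SE, limma adjusted p = 7.59e-06), and as deposited cKO replicate 1 overlapped control replicate 13. Stmn2, a neuronal gene, fell by 0.54 (limma adjusted p = 0.00748), but was not called as deposited (-0.09, limma adjusted p = 0.561) or without the libraries that held Xist (limma adjusted p = 0.0830).

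Markers of other cells moved in the same hearts, and their part in these results was not tested. Of all tested genes 20.8% were called each way against the median gene, and 76.5% higher and 3.46% lower as deposited. Macrophage markers rose in 10 of 10 tested genes against the median gene. Their 11 listed genes summed to 342 to 502 scaled TPM in cKO and 106 to 121 in control hearts. Fcgr1, among those 10, reached 1 TPM only in cKO libraries and so passed the filter only through that group. Cd163, below the filter, averaged 0.507 scaled TPM in cKO and 0.474 in control hearts. Fibroblast markers rose in 7 of 8 genes and fell in 1 (sums of 1128 to 1377 in cKO and 757 to 952 in control hearts). Endothelial markers fell in 7 of 8 genes (202 to 251 in cKO and 309 to 348 in control hearts), although as deposited 1 was called higher and 0 lower. Smooth muscle and pericyte markers rose in 1 and fell in 4 of 8 genes (225 to 255 in cKO and 296 to 359 in control hearts), although as deposited 4 were called higher and 0 lower. Cardiomyocyte markers fell in 9 of 9 genes (25909 to 33183 in cKO and 49721 to 52755 in control hearts), and as deposited in 3. Neither of 2 tested neutrophil markers was called (10.1 to 36.9 in cKO and 8.84 to 30.3 in control hearts), although as deposited 1 was called higher and 0 lower. With no filter on low values Csf3r and Camp were called higher (limma adjusted p = 0.0306 and 0.0477), and no other listed neutrophil marker was. Of 8 lymphocyte markers 0 passed the filter (2.74 to 4.80 in cKO and 1.62 to 2.43 in control hearts). The epicardial gene Wt1 fell as the 1 tested marker of 6 (sums of 2.71 to 4.17 in cKO and 6.83 to 10.4 in control hearts).

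Markers of skin and other squamous epithelia, 14 in all, summed to 3.14 to 8.16 TPM in cKO and 2.33 to 3.56 TPM in control hearts, most of it Krt10 and Sbsn, and Krt14, Krt13, Krt4, Lypd3 and Flg were listed at 0 in every library. The 1 that passed the filter, Krt10, was not called against the median gene. As deposited it was called higher, by 0.54 (limma adjusted p = 0.0437), beside 76.5% of all genes. The 6 markers of simple and lung epithelium summed to 0.282 to 0.663 TPM in cKO and 0.0384 to 1.69 TPM in control hearts, with Sftpc at 0 throughout. The keratin genes Krt8 and Krt18, typical of simple epithelia but not in that list, were both far more abundant in cKO hearts. They are among the genes nearest to Sprr1a in pattern, through their large difference between the groups. Within cKO their order over the replicates was not that of Sprr1a. Scaled Krt8 was 61.2, 53.0, 56.5, 45.0 and 67.2 in cKO replicates 1, 3, 5, 6 and 7. Scaled Krt18 was 171, 124, 140, 117 and 182 in the same order. Both were highest in cKO replicate 7, in which scaled Sprr1a was lowest (12.5). Among the other cKO replicates both were highest in replicate 1 and lowest in replicate 6, as was Sprr1a. Krt8 averaged 74.0 ± 12.7 TPM in cKO and 0.955 ± 0.177 TPM in control hearts. Krt18 averaged 192 ± 41.9 TPM in cKO and 3.37 ± 0.379 TPM in control hearts. The part of epithelial cells in the level of Sprr1a was not tested.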

How the data were processed

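RNA-seq of 5 cKO and 5 control hearts was used as 1 table of TPM deposited by the authors, with 55858 genes and libraries named by the labels' titles. Per the submitters' processing notes, the tools, listed without role or order, included DESeq2 1.22.2, HTSeq 0.11.2, Picard 1.96, STAR 2.7.1, FastQC 0.11.7, Trimmomatic 0.32 and bcl2fastq, and the build was mm10. No source used here gives the annotation, gene lengths or strandedness, so overlapping and antisense genes could not be told apart. Of the gene IDs 51460 matched GENCODE M21 without their version and 35 with it. Depth is unknown, so no counting intervals were given. The labels do not tie the 5 libraries of a group to litters, and p-values measure the spread between these samples.

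Size factors were medians of ratios to the geometric mean library, and each TPM was divided by its own (16393 genes above 0 in all libraries). Genes with at least 1 TPM in at least 5 libraries were tested (13282 genes) as log2(scaled TPM + 1) with limma 3.58.1 in R 4.3.3 (mean-variance trend, two-sided), and calls were made at 0.05 after Benjamini-Hochberg adjustment over all tested genes. The procedure was tested on simulated data. Python 3.11.15, numpy 2.4.6, pandas 2.3.3 and matplotlib 3.10.9 were used. Promoters came from RefSeq GRCm38.p6. No pair of libraries was identical.

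The members, 9 pathway lists and 10 marker lists were chosen with earlier results of these data known. Genes named with values were all members, every gp130 ligand and receptor, up to 4 called genes per pathway list by adjusted p, and the 5 genes nearest in pattern to Sprr1a, Socs3, Osmr and Tnfrsf12a among those with a mean of at least 5 TPM in either group. A few genes that this rule names are not reported here. Others are marked as named after their values were seen, or given among markers or counts. Alternatives were scaling, pseudocount, filter, variance model, library weights and libraries left out.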

Additional observations from a re-analysis of the deposited data

Results flagged for a closer look

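Among 64 sets of 5 libraries (9 members and 23 named pathway genes in each group), 2 held a library far from the others, where chance flags about 1 in 20. Osmr was highest in control replicate 9, at 3.69 scaled TPM, with the other controls at 3.13 to 3.29. Ctf1 was highest in control replicate 13, at 6.14 scaled TPM, with the other controls at 2.51 to 3.26.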

How the results depend on the processing

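The scale decided most calls. As deposited, limma called 10160 genes higher and 460 lower, against 2763 and 2766 relative to the median gene. Of the members, 7 were called higher and 0 lower as deposited, and of the listed pathway genes 56 and 2. With TPM closed over genes that are not mitochondrially encoded, where the median of all genes stood at 0.28, the counts were 6064 higher and 1373 lower for all genes, 5 and 0 for members, and 42 and 4 for listed genes. Among named genes called on either scale, the sign turned as deposited for Lifr (0.18), Pim1 (0.51), Cish (0.35), Stat5b (0.41) and Vegfa (0.0018). No sign of a named gene's called difference turned elsewhere. Ctf1, called on neither scale, was lower in cKO against the median gene and higher as deposited. With at least 5 TPM in at least 5 libraries 0 members were called lower, since Lifr is below that level in most libraries. Without the 3 cKO libraries with Xist, which leaves 2, 1642 genes were called higher and 1819 lower. The differences there were 4.26 for Sprr1a, 0.32 for Il6st and -0.36 for Lifr, given as a description. Leaving out 1 library at a time gave 2500 to 2698 genes higher and 2509 to 2770 lower, 2 to 3 members higher and 1 lower, and 20 to 24 listed genes higher and 7 to 9 lower. The added member was Osmr, without cKO replicate 6 or 7 (0.56 each). Of the 23 named pathway genes 12 kept direction and call in all 18 alternatives that tested them. No paired analysis was possible because the groups share only replicate number 6. Unknown depth limits genes under 1 TPM, Sprr1a in controls, Il6ra and most ligands among them.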
